A study of Equus caballus with 4 samples.

Results

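The genes considered were 10 regulators of alternative splicing in muscle, namely *RBFOX1*, *RBFOX2*, *MBNL1*, *MBNL2*, *MBNL3*, *CELF1*, *CELF2*, *PTBP1*, *RBM20* and *RBM24*. They were found on the array as the probes whose gene name in the deposited files was one of these symbols. This gave 12 of the 43603 probes, for 9 of the 10 genes, out of 15254 genes with a symbol on the array. *MBNL2* had no probe by that name. The cells were equine satellite cells (ESC), the muscle precursor cells, isolated from *m. semitendinosus* of healthy colts aged 6 months and depleted of fibroblasts by preplating. Both groups had differentiated for 2 d in medium with horse serum. One group was then given the leucine metabolite β-hydroxy-β-methylbutyrate (HMB) for 24 h, and the control group stayed in differentiation medium, so that all cells were harvested on day 3 of differentiation. The dose of HMB is 50 µg in the sample labels and 50 µM in the methods of the study. The description attached to the samples names the treated cells as GO-treated and ends in the same replicate number each time, although it counts the replicates from 1 to 4 at its start. Titles and source names say HMB and were followed. RNA of HMB-treated cells (Cy5) and of control cells (Cy3) was hybridised together on each of 4 two-colour arrays. The colt behind each array is not named in the sources used here, so that the spread between arrays may be partly technical.

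Many transcripts of muscle genes are spliced differently in precursor cells and in mature fibres, and a small number of RNA-binding proteins direct this switch. RBFOX proteins bind the element UGCAUG in introns near an exon and favour its inclusion or skipping according to the side on which they bind. MBNL and CELF proteins act against each other on many exons: MBNL activity rises and CELF activity declines as muscle matures, and loss of free MBNL protein underlies myotonic dystrophy. PTBP1 represses muscle exons in undifferentiated cells, whereas RBM24 favours the exons of sarcomere genes. RBM20 also acts on the splicing of sarcomere genes, mainly titin. The array measures the amount of mRNA at a 60-base probe and does not measure splicing.

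Each value is the ratio of HMB-treated to control cells on the log2 scale, in which a negative value stands for less mRNA in HMB-treated cells. The ratio of every probe with signal was tested against 0, two-sided, with limma, and P values were adjusted over the 27384 tested probes with a threshold of 0.05. Errors are SD over the 4 arrays. As HMB-treated cells were always labelled with Cy5, a bias of a probe towards one dye and an effect of HMB cannot be told apart from these arrays.

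Stretches of both *RBFOX1* probes that carry the symbol are shown first. The probe that carries the symbol and was bright enough to be tested (ENSECAT00000013739, EquCab1 chrUn:78650975-78651034, plus strand) lies on an unplaced sequence and is listed in the files under 3 Ensembl transcripts. Near its start it carries the DNA form of the RBFOX element, printed in capitals within the first 24 bases of the probe.
RBFOX1 tested probe, first bases: catcttatgTGCATGcagtaagat
RBFOX1 junction probe: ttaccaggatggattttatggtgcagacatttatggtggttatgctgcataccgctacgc
The letters TGCATG occurred on the transcript strand in 639 of the 43603 probes (1.47%), and on either strand in 1166 probes (2.67%). A match is a description of these letters and not a binding site. The other *RBFOX1* probe (ENSECAT00000013864) is spread over 11018 bases of the genome, chrUn:78600246-78611263, although it is 60 bases long, so that its bases are not next to each other there. It is listed under 1 transcript, and it has no stop codon in any of its reading frames. Whether a probe lies in an untranslated region is not annotated in the files.

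*RBFOX1* had the lowest ratio among the tested regulators. Its tested probe gave log2 ratios of -0.91, -0.94, -1.17 and -1.18 on arrays 1 to 4. The 4 values lay close together and well below 0. The mean was -1.05 ± 0.14, with a 95% confidence interval from -1.23 to -0.87, and *RBFOX1* mRNA was thus 2.07-fold lower in HMB-treated cells (adjusted P = 0.00115). The processed signal was 360.2, 342.5, 354 and 303.7 in control cells and 191.9, 178.2, 157.6 and 134.4 in HMB-treated cells. Among all tested probes, 258 (0.942%) had a lower mean. Fewer cells that express a gene and less of its RNA per cell cannot be told apart in these samples.

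The *RBFOX1* junction probe was not well above background on any array in either channel. Its ratios of 0.53, 0, 0 and 0 are therefore no measurement. A further probe is named in the files only by the accession XM_001502559 and falls outside the rule by symbol, so that it did not stand for the gene although it is the brighter one, with control signals from 1025 to 1311. It lies at chrUn:78651759-78651818, next to the tested probe, and its ratios were -0.83, -0.86, -1.07 and -1.08, with a mean of -0.96 ± 0.14 (adjusted P = 0.00125). On every array its ratio was nearer to 0 than that of the tested probe, the difference being -0.09 ± 0.01. Both probes were read on the same arrays and are not independent of each other.

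*RBFOX2*, the paralog that is active in most tissues, gave another picture. Its probe (ENSECAT00000020616, chr28:33112104-33112163, minus strand) had ratios of -0.06, -0.02, -0.06 and -0.33. Array 4 stood apart from the other arrays. The mean was -0.12 ± 0.14 and was not past the threshold (adjusted P = 0.296), and its interval ran from -0.30 to 0.06. It was -0.046 without array 4 and -0.0065 without lowess normalisation, and it was not past the threshold in any setting. The ratio of *RBFOX1* was below that of *RBFOX2* on all 4 arrays, with differences of -0.85, -0.92, -1.11 and -0.85. The mean difference was -0.93 ± 0.13, and the exact two-sided P from the 16 ways of reversing the signs of whole arrays was 0.13, the smallest that 4 arrays allow.

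**Figure D1:**
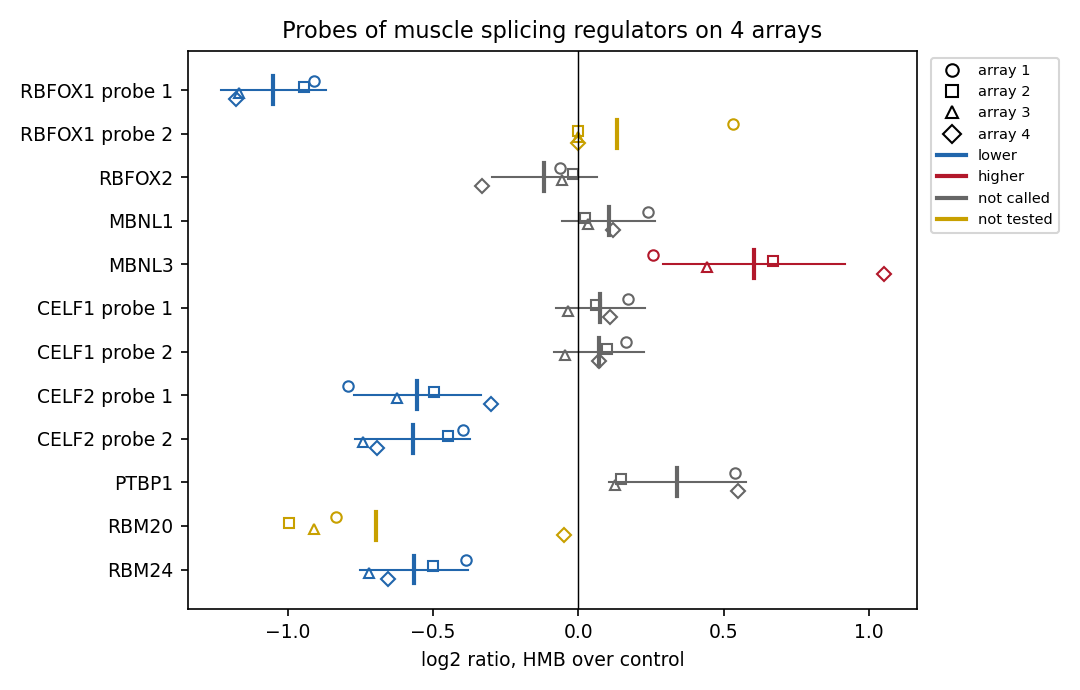
Log2 ratio of HMB-treated over control cells (horizontal axis) for the 12 probes of the splicing regulators (vertical axis). Symbols are the 4 arrays, thick bars the means and thin lines the 95% confidence intervals of limma; blue and red mark probes past the threshold, grey those not past it and yellow those not tested. The 4 *RBFOX1* values of the tested probe lie between -1.18 and -0.91, and those of *RBFOX2* between -0.33 and -0.02.

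Across all regulators, 10 of the 12 probes were tested, for 8 genes. The threshold was passed by 5 of these 10 probes, 4 of which were lower and 1 higher with HMB. Among all 27384 tested probes, 22.8% passed, 11.6% lower and 11.2% higher. When the brightest tested probe stood for each gene, 4 of 8 genes passed, with *RBFOX1*, *CELF2* and *RBM24* lower and *MBNL3* higher. Over all 9962 tested genes the share was 22.7%, with 11.2% lower and 11.5% higher. The 10 regulators were chosen with earlier results of these data known. The median log2 ratio of the 8 genes was -0.02, compared with 0.03 over all genes. A plain t-test, which does not pool variance over probes, passed 2.80% of all probes, and *RBFOX1* was the 1 regulator that did (adjusted P = 0.043, in a range from 0.000504 to 0.043 over 13 other settings).

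**Figure D2:**
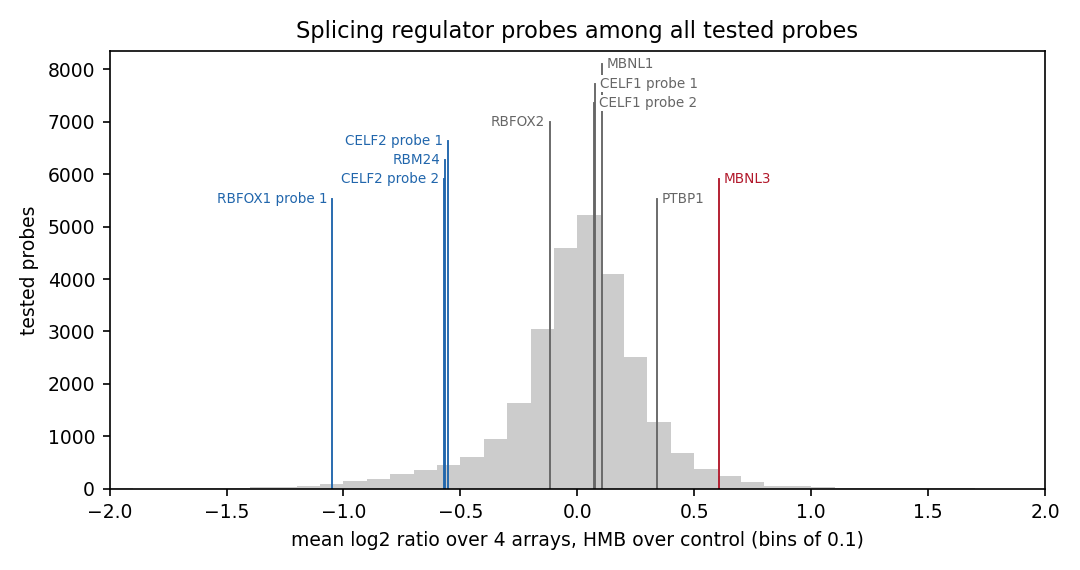
Number of tested probes (vertical axis) by mean log2 ratio over the 4 arrays (horizontal axis, grey bars of width 0.1), with the 10 tested probes of the splicing regulators as lines; blue and red lines are past the threshold and grey lines are not. The *RBFOX1* line lies in the lower tail, with 258 probes below it, and 621 probes lie above the *MBNL3* line.

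Among the CELF genes, *CELF2* was lower in HMB-treated cells by both of its probes, and *CELF1* was not past the threshold by either. The brighter *CELF2* probe (ENSECAT00000007313, chr29:22059837-22059896, minus strand) had ratios of -0.79, -0.50, -0.62 and -0.30. The other *CELF2* probe (ENSECAT00000007499, chr29:22062100-22062159) gave -0.40, -0.45, -0.74 and -0.69. All 8 values were below 0, but the arrays took a different order in each probe. The means were -0.55 ± 0.21 (adjusted P = 0.0105) and -0.57 ± 0.17 (adjusted P = 0.00707), or 1.47-fold and 1.48-fold lower. The difference between both probes changed sign among the arrays and averaged 0.02 ± 0.33. The brighter probe was not past the threshold in the plain t-test (adjusted P = 0.0935) or without the filter on dim probes (adjusted P = 0.0581), and for the gene the range over 13 other settings was 0.00449 to 0.0935.

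The *CELF1* probes (ENSECAT00000008565, chr12:9208322-9208381 and chr12:9208323-9208382, minus strand) are shifted by a single base, so that they stand for 1 measurement. The brighter gave ratios of 0.16, 0.10, -0.05 and 0.07, with a mean of 0.07 ± 0.09 (adjusted P = 0.444) and an interval from -0.08 to 0.23. The mean was 0.042 without array 1 and 0.11 without array 3, not past the threshold in either. The brighter *CELF1* probe and the second *CELF2* probe cover the same stretch of these related genes. The stretches are shown because the genes share much of this sequence and yet had different ratios. Capitals mark the bases that differ.
CELF1: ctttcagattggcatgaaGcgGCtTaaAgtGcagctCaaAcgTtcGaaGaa
CELF2: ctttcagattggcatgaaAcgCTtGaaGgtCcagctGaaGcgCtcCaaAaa
Of the 51 aligned bases, 40 (78.4%) were the same and 11 differed. Whether these probes bind each other's transcripts was not tested. The ratio of *CELF2* was below that of *CELF1* on all 4 arrays, by -0.63 ± 0.24 on average between the brighter probes (exact two-sided P = 0.13, the smallest possible). This pair, like that of *MBNL3* and *MBNL1*, was chosen after the values were seen, and adjusted over the 3 pairs compared each exact P remained 0.13.

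The MBNL genes, whose products promote the splicing pattern of mature muscle, are given next. The *MBNL1* probe (ENSECAT00000026286, chr16:75675317-75675376) was bright, with control signals between 2507 and 2601. Its ratios were 0.24, 0.02, 0.03 and 0.12, with a mean of 0.10 ± 0.10 that was not past the threshold (adjusted P = 0.291). The interval reached from -0.05 to 0.26. The mean was 0.059 without array 1 and 0.22 without lowess normalisation, not past the threshold in either. *MBNL3*, which is known as an inhibitor of muscle differentiation, had a dim probe (ENSECAT00000022620, chrUn:32268001-32268060) with signals of 35.1, 34.4, 43.7 and 42.6 in control cells and 42, 54.7, 59.4 and 88.3 in HMB-treated cells. The ranges of both groups overlapped, yet the HMB-treated cells were higher within each array, with ratios of 0.26, 0.67, 0.44 and 1.05.

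The mean ratio of *MBNL3* was 0.61 ± 0.34, or 1.52-fold higher (adjusted P = 0.0225). The call was lost in 5 of 13 other settings: without array 2 (adjusted P = 0.0775), without array 3 (adjusted P = 0.0573), in the plain t-test (adjusted P = 0.144), without the filter on dim probes (adjusted P = 0.107) and with normexp background correction, which gave a mean of 0.24 (adjusted P = 0.093). Over the 13 settings the adjusted P ranged from 0.0195 to 0.144. The difference of *MBNL3* from *MBNL1* averaged 0.50 ± 0.39 and was 0.02 on array 1 (exact two-sided P = 0.13). *MBNL2* could be followed only by a probe that the files describe by the name of the gene product without the symbol (ENSECAT00000022173). It was above background in HMB-treated cells on 1 array and in control cells on 0 arrays, and no value is drawn from it.

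*PTBP1*, the repressor of muscle exons, had a probe (ENSECAT00000020669) whose 60 bases are spread over 136 bases of chrUn:340596681-340596816. Its ratios were 0.54, 0.15, 0.13 and 0.55. Arrays 1 and 4 were high and arrays 2 and 3 low, all of them above 0. The mean of 0.34 ± 0.23 missed the threshold narrowly (adjusted P = 0.0517), with an interval from 0.10 to 0.58. It was past it in 3 of 13 other settings, among them the ratios without lowess normalisation (adjusted P = 0.0475), and the range over these settings was 0.0433 to 0.182.

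*RBM24*, a promoter of sarcomere exons, was lower in HMB-treated cells. Its probe (ENSECAT00000010141, chr20:15995892-15995951, plus strand) gave ratios of -0.39, -0.50, -0.72 and -0.66. Control signals lay between 6412 and 7593 and those of HMB-treated cells between 4069 and 5058. The mean was -0.57 ± 0.15, or 1.48-fold lower (adjusted P = 0.00603), and the plain t-test did not call it (adjusted P = 0.0695, the highest of 13 other settings, the lowest being 0.00235). *RBM20* has a probe (ENSECAT00000022941) spread over 10363 bases of chr1:19894897-19905259. Its signal was well above background on array 4 only, in both channels, where the ratio was -0.05. On arrays 1 to 3 the values of -0.83, -0.99 and -0.91 came from signals not well above background in either channel, and *RBM20* was not tested.

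**Figure D3:**
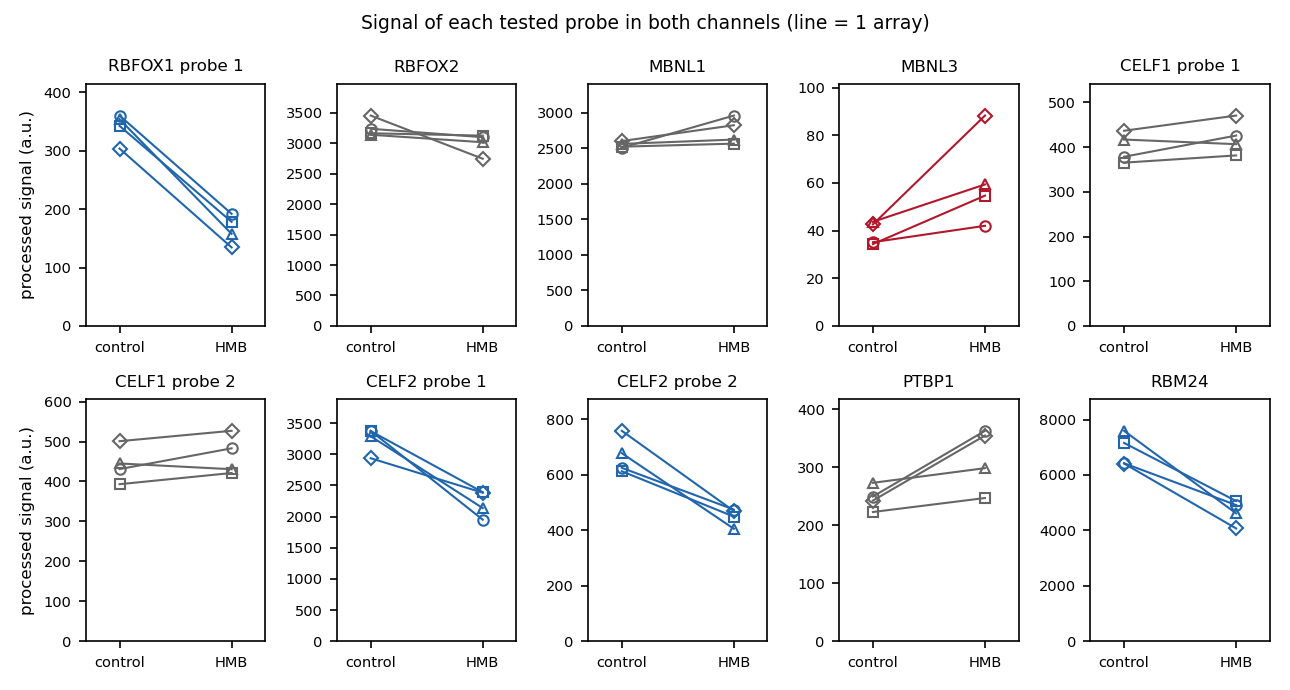
Processed signal in arbitrary units (vertical axis, from 0) of the 10 tested probes in control and HMB-treated cells, with 1 line for each array; blue lines fell and red lines rose past the threshold, and grey lines belong to probes not past it. For *RBFOX1* the control signals lie between 303.7 and 360.2 and those of HMB-treated cells between 134.4 and 191.9.

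In order of their mean ratios, the 8 genes ran from *RBFOX1* (-1.05) through *RBM24* (-0.57), *CELF2* (-0.55), *RBFOX2* (-0.12), *CELF1* (0.07), *MBNL1* (0.10) and *PTBP1* (0.34) to *MBNL3* (0.61). The confidence intervals of *RBM24* and *CELF2* overlapped nearly in full. Those of *RBFOX2*, *CELF1* and *MBNL1* overlapped as well, and so did those of *PTBP1* with its neighbours *MBNL1* and *MBNL3*. The interval of *RBFOX1* lay below those of the other 7 genes.

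The genes whose ratios over the 4 arrays were nearest to those of *RBFOX1* were sought among the other tested genes, by the Euclidean distance of the log2 ratios. The nearest was *MYF5*, a transcription factor of the myogenic lineage, at a distance of 0.106. Its ratios were -0.82, -0.88, -1.17 and -1.15. *TGFB2*, a growth factor, followed at 0.161 with ratios of -0.79, -1.03, -1.20 and -1.24. *GAREM*, an adaptor of growth factor receptor signalling, came next at 0.168 with ratios of -0.96, -0.95, -1.04 and -1.08.

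Of 8 paralogs of the regulators, 7 had a probe and 4 were tested. *PTBP2*, the neural counterpart of *PTBP1*, had ratios of -0.30, -0.19, -0.23 and -0.51 and was lower in HMB-treated cells, with a mean of -0.31 ± 0.14 (adjusted P = 0.0309). *CELF5* had a dim probe that entered the test only through HMB-treated cells, where it was above background on all 4 arrays, against 2 of 4 in control cells. Its signals were 22.11, 22.51, 11.6 and 17.64 in control cells and 31.11, 28.23, 19.65 and 26.32 in HMB-treated cells. It counts as past the threshold by the rule, but the size of its ratio is not reported. *PTBP3* (0.16 ± 0.14) and *RBM38* (-0.07 ± 0.08) were not past it. The probes of *RBFOX3*, *CELF3* and *CELF4*, which are mainly neuronal genes, were below the filter.

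Among 32 other RNA-binding regulators of splicing, 26 had a probe and 24 were tested. Of these, 5 passed the threshold, 1 lower and 4 higher, and the median of the 24 was 0.06. *NOVA1*, a regulator best known from neurons, rose most, with ratios of 0.56, 0.49, 0.73 and 0.83 and a mean of 0.65 ± 0.16 (adjusted P = 0.00431). *HNRNPA1*, *HNRNPK* and *RBM4* were higher by 0.29 ± 0.15, 0.28 ± 0.12 and 0.27 ± 0.14, with adjusted P values between 0.0346 and 0.0433. *KHDRBS3*, a member of the STAR family, was lower, at -0.38 ± 0.21 (adjusted P = 0.0317). Its probe was dim, with signals of 54.15, 54.14, 59.16 and 57.4 in control cells and 34.02, 45.72, 44.58 and 49.91 in HMB-treated cells. Paralogs and other regulators together gave 7 of 28 past the threshold, close to the 22.7% of all genes. When both channels had to be above background on each array, *CELF5* was left out and 6 of 26 passed, next to 21.5% of all genes under that filter. In the plain t-test 0 of the 28 passed after adjustment, and without the filter on dim probes 2 of 33 passed, next to 8.34% of all genes. Of the 6 with both channels above background, *NOVA1* alone held its call in each fit without an array, *KHDRBS3* held it only without array 4, and the other 4 held it in none. With *CELF5* included each time, the count for all 28 was 2 without array 1, 2 without array 2, 2 without array 3 and 3 without array 4. In the same fits 17.0%, 8.88%, 9.76% and 17.1% of all genes passed.

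Genes whose transcripts are known to be alternatively spliced in striated muscle were listed as well. They are called splicing targets here, but which of these regulators acts on each was not tested. Of 38 such genes, 27 had a probe by symbol, and 24 were tested. In HMB-treated cells 15 of the 24 were lower and past the threshold of limma, and 0 were higher. Among all tested genes 11.2% were lower and 11.5% higher. As the list was chosen with earlier results of these data known, these shares are a description and not an independent test. With both channels above background on each array the count was 14 of 23, all lower, against 10.8% of all genes lower under that filter. Before adjustment, 19 were lower and 0 higher with a P under 0.05 in limma, where all genes had 17.4% lower and 21.0% higher. In the plain t-test before adjustment the counts were 14 and 0, against 13.9% and 16.4% of all genes, and none of the 24 passed after adjustment. Without the filter on dim probes 4 of 27 targets passed, all lower, against 4.47% of all genes lower. The median of the 24 genes was -0.51, and it was -0.31, -0.41, -0.45 and -0.86 on arrays 1 to 4. These ratios are amounts of mRNA at the probe and do not tell which exons were used.

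The largest falls among these genes were those of *NCAM1*, *TNNT3*, *PDLIM3* and *NRAP*. *NCAM1*, a cell adhesion molecule with exons specific to muscle, had ratios of -0.56, -0.80, -1.06 and -1.19 (mean -0.90 ± 0.28, adjusted P = 0.0045). *TNNT3*, the fast troponin T, had -0.20, -0.78, -1.08 and -1.43 (mean -0.87 ± 0.52, adjusted P = 0.0224). *PDLIM3*, a protein of the Z-disc, had -0.43, -0.72, -0.94 and -1.31 (mean -0.85 ± 0.37, adjusted P = 0.0104). *NRAP*, which takes part in the assembly of myofibrils, had -0.47, -0.88, -0.95 and -1.11 (mean -0.85 ± 0.28, adjusted P = 0.00526). In each of these 4 genes the ratio was nearest to 0 on array 1 and lowest on array 4. Over all tested probes the SD of the log2 ratios was 0.35, 0.34, 0.39 and 0.48 on arrays 1 to 4. The part of this wider spread on array 4 in the order was not tested. The count of 15 became 14 without array 1, 9 without array 2, 9 without array 3 and 12 without array 4, all lower, while the share of all genes that passed lower was 9.46%, 5.41%, 5.21% and 8.88%. The calls of *NCAM1*, *PDLIM3* and *NRAP* were among the 6 of 15 that held in each of these fits, and that of *TNNT3* held only without array 1. The 15 include *TRDN*, which entered the test only through control cells. It was above background there on 4 arrays, against 3 in HMB-treated cells, and its call held only without array 3.

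**Figure D4:**
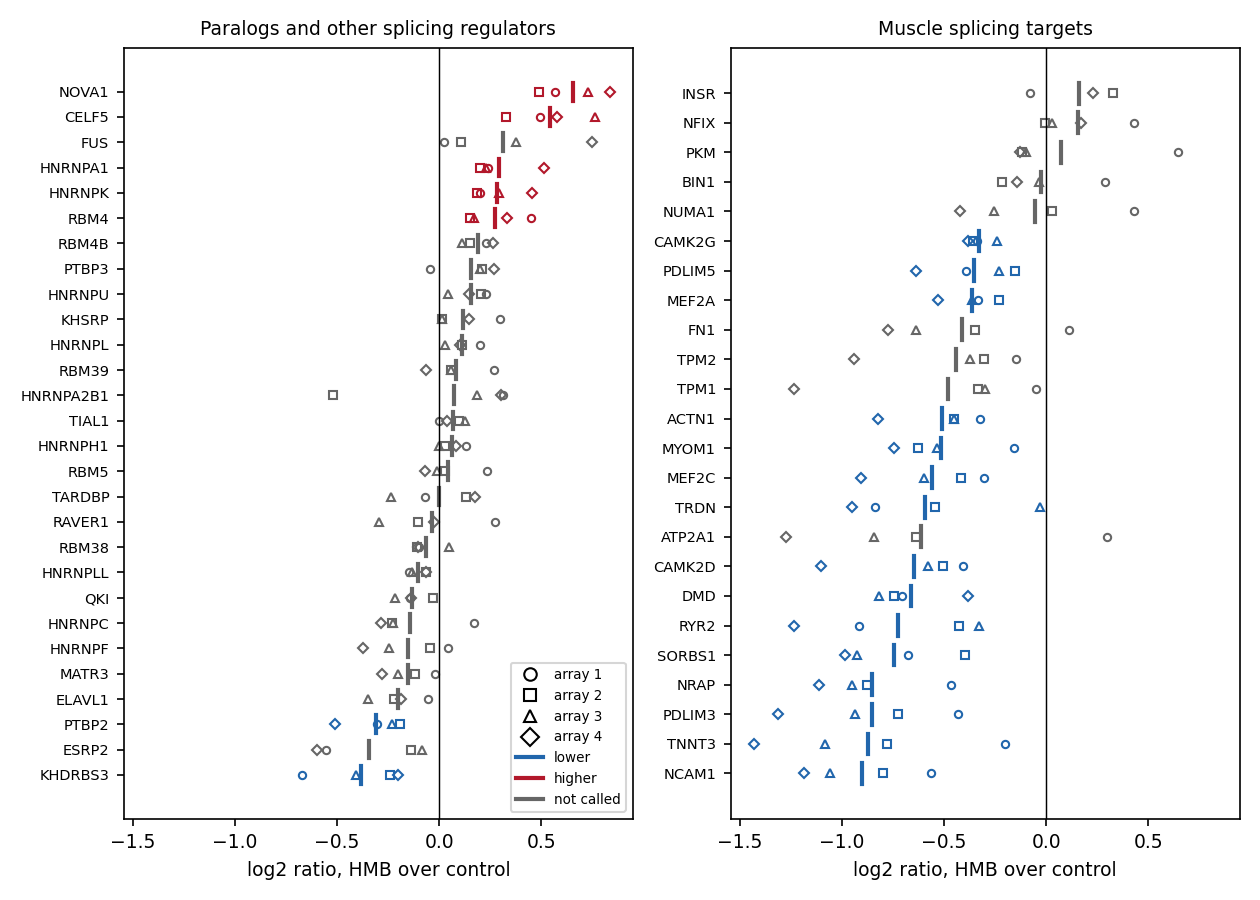
Log2 ratio of HMB-treated over control cells (horizontal axes) on the 4 arrays (symbols) with the mean (bar) for 28 tested paralogs and other splicing regulators on the left and 24 tested splicing targets on the right; blue and red genes are past the threshold and grey genes are not. On the right, 15 genes are blue and 21 of 24 means lie below 0, while on the left 16 of 28 means lie above 0.

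Markers of the muscle lineage were examined too, and like all lists here this one was chosen with earlier results of these data known. Of 11 such markers, 7 had a probe, and all 7 were lower in HMB-treated cells and past the threshold, from *MYH3* (-1.11 ± 0.47) to *MYOG* (-0.42 ± 0.20). Among all tested genes 22.7% passed, and 11.2% were lower. In the plain t-test 6 of the 7 were lower before adjustment, against 13.9% of all genes, and 0 passed after it. The other 5 were *MYF5*, *MYOD1*, *DES*, *CKM* and *ACTA1*. The median of all 7 was -0.98, and it was -0.43, -0.88, -1.06 and -1.26 on arrays 1 to 4. Array 4 also had the widest spread over all tested probes. The summed signal of the 7 probes was 174400, 175300, 188100 and 195600 in control cells and 127000, 87020, 80470 and 72990 in HMB-treated cells, with *MYH3*, the embryonic myosin heavy chain, as the brightest. The part of this shift in the lower *RBFOX1*, *CELF2*, *RBM24* and target mRNA was not tested.

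Of 7 fibroblast markers, 6 were tested, and 2 were past the threshold, both higher, where 22.7% of all genes passed and 11.5% were higher. Neither passed in the plain t-test after adjustment. *PDGFRA* had ratios of 1.09, 1.38, 1.46 and 2.19 (mean 1.53 ± 0.47, adjusted P = 0.00358), and *FAP* had a mean of 0.42 ± 0.18 (adjusted P = 0.0185). The control signals of the *PDGFRA* probe were dim, at 37.96, 35.16, 39.26 and 41.81, against 80.96, 91.71, 108.2 and 191 in HMB-treated cells. *COL3A1*, *THY1*, *DCN* and *LUM* had means between -0.21 and 0.15 and were not past it. The summed signal of the 6 probes, of which *COL3A1* was the brightest, was 182100, 177000, 191800 and 242900 in control cells and 232100, 173700, 180000 and 181000 in HMB-treated cells. All 4 endothelial markers (*PECAM1*, *CDH5*, *KDR* and *TEK*) and the 3 adipocyte markers with a probe (*ADIPOQ*, *FABP4* and *LEP*) were below the filter, and no probe of theirs was well above background on more than 1 array. Of the leukocyte markers, *CD14* (0.02 ± 0.15) and *CD68* (-0.29 ± 0.30) were tested and not past the threshold, while *CSF1R* and *ITGAM* were below the filter. Of 6 neural markers, only *SYP* was tested (-0.22 ± 0.14), and it was not past the threshold. The part of fibroblasts in the results was not tested.

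**Figure D5:**
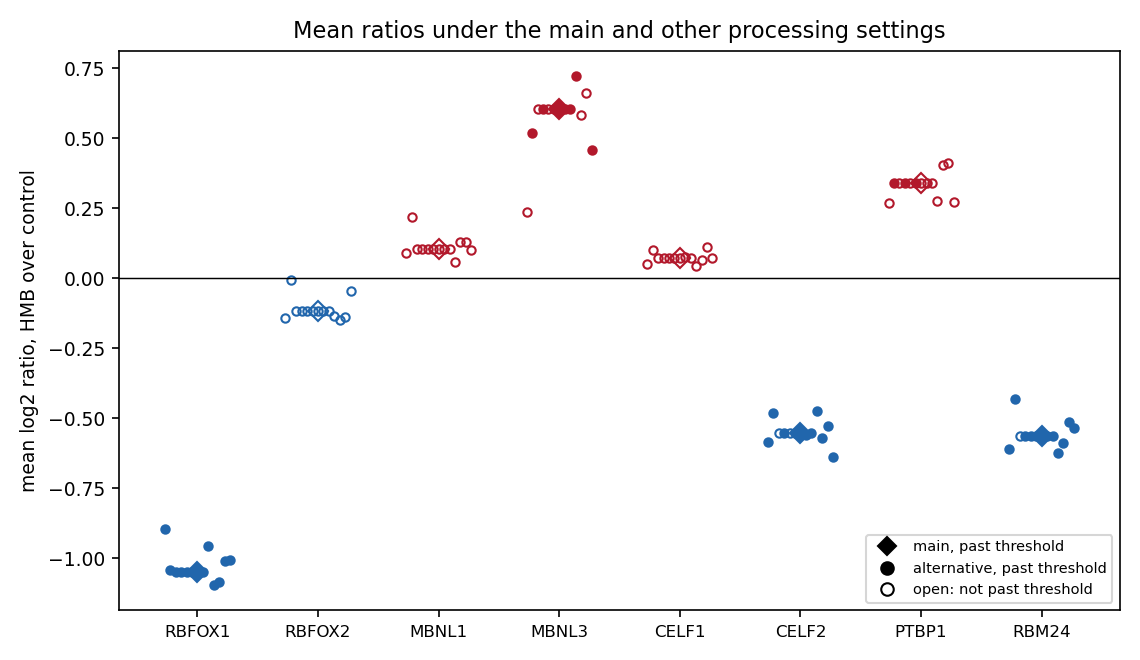
Mean log2 ratio of HMB-treated over control cells (vertical axis) of the 8 tested splicing regulators (horizontal axis) as reported (diamonds) and in 13 other settings (circles), blue below and red above 0; filled symbols are past the threshold and open ones are not. All *RBFOX1* symbols are filled and lie between -1.10 and -0.90, and those of *MBNL3* lie between 0.24 and 0.72 with 5 of 13 circles open.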

How the data were processed

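RNA of HMB-treated (Cy5) and control (Cy3) ESC was compared on 4 two-colour Agilent horse arrays, with a RIN of at least 9.2. The authors made the deposited intensity values, raw and processed, with Feature Extraction (10.10.1.1 in the file headers, which is not the version given in the methods), and the deposited log10 ratios by background subtraction and linear and lowess dye normalisation. Marks of Feature Extraction in other deposited columns told which spots were bright, uneven, outlying or saturated. The summary table holds the same log10 values (largest difference 0), with a median of 0 on each array.

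Multiplication by 3.32 gave log2 ratios. Control spots and spots marked as non-uniform or outlying (11, 17, 32 and 15 on arrays 1 to 4, none of them of a regulator probe) were left out, and replicate spots were averaged. Testing required 1 channel to be well above background on each of the 4 arrays and a value on 3 or more of them, which left out 16219 probes. The number of arrays limits the precision. The tests used limma 3.58.1 in R 4.3.3 with the package data.table (version 1.17.8), the Benjamini and Hochberg adjustment and, between genes, exact sign reversal; the code was tested on simulated data. Figures were drawn with Python 3.11.15, numpy 2.4.6, pandas 2.3.3 and matplotlib 3.10.9.

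Symbols came from the files, from RefSeq gene names (TB-T2T assembly) for 479 probes by accession and for 1684 by gene number, and for *CELF5* and *RBFOX3* from the description. The members and lists were chosen with earlier results of these data known. Genes named are the 10 members, the markers and the 3 genes nearest to *RBFOX1*. Listed genes past the threshold (among targets the 4 largest falls and *TRDN*) and genes flagged for an outlying array were named as well. Other paralogs were named after their values were seen. Alternatives were normexp (offset 50) with loess, median-centred ratios without lowess, a plain one-sample t-test on each probe, limma with an intensity trend and robust prior, no filter, a filter on both channels, keeping marked spots, the mean of all probes of a gene, older symbols, and each array left out (at least 2 values). The methods section names no test; a Student test, of a kind not stated, is named in a supplementary workbook, so that the plain t-test may differ from that of the study. Adding probes named by accession or description was chosen after seeing the data.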

Additional observations from a re-analysis of the deposited data

Results flagged for a closer look

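In 6 of the 61 probes of regulators and targets examined, 1 array lay far from the other 3 relative to the range of all 4, where chance alone gives about 1 in 20. For *RBFOX2* the ratio of array 4 was -0.33, against -0.06 to -0.02 on the others. *HNRNPA1* stood at 0.51 on array 4, against 0.20 to 0.24. *HNRNPA2B1* was at -0.52 on array 2, with the others between 0.19 and 0.31. *HNRNPC* was at 0.17 on array 1, with the others from -0.28 to -0.23. *PKM*, a target of *PTBP1*, was at 0.65 on array 1 and between -0.13 and -0.10 elsewhere. *RBM38* was at 0.046 on array 3 and at -0.11 to -0.10 elsewhere. None of the 6 was past the threshold except *HNRNPA1*.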

How the results depend on the processing

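The fall of *RBFOX1* was past the threshold in all 13 other settings (means from -1.10 to -0.90). *RBM24* was past it in 12, *CELF2* in 11 and *MBNL3* in 8 of 13, *PTBP1* in 3, and *RBFOX2*, *MBNL1* and *CELF1* in 0. None of the 8 genes changed direction. The plain t-test gave 768 probes (2.80% of all tested) in place of 6257 (22.8%). It gave 1 regulator probe in place of 5 and 1 regulator gene in place of 4. Of the paralogs and other regulators 0 passed in place of 7, and of the targets 0 in place of 15. Without the filter on dim probes, which raises the number of probes tested, these counts were 3690, 3, 2, 2 and 4. In that fit 8.34% of all genes passed. With normexp and loess, 4 paralogs and other regulators passed, and the difference of *RBFOX1* from *RBFOX2* was -0.75; the cause was not tested. Leaving out each array in turn gave 2573 to 4957 probes, with 2573 without array 2 and 2705 without array 3. These fits, each with fewer arrays, gave 4 to 5 regulator probes and 3 to 4 regulator genes. They also gave 2 to 3 paralogs and other regulators and 9 to 14 targets. Of all genes 17.0%, 8.88%, 9.76% and 17.1% passed without arrays 1 to 4 in turn. The difference of *RBFOX1* from *RBFOX2* lay between -0.96 and -0.87. Without lowess, 59.2% of the calls were rises, against 49.1% as reported. Adding the probes named by accession or description, chosen after seeing the data, left 4 regulator genes past the threshold and the difference at -0.84. No probe carried an older symbol of a member. *MBNL3*, *CELF5*, *KHDRBS3* and *TRDN* were read from dim probes, and the probe of *PDGFRA* was dim in control cells. *RBM20* and *MBNL2* were left unmeasured, as their signals were not well above background on most arrays.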
